A study of Mus musculus with 36 samples.

Results

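The liver of old and young male C57BL/6J mice was compared on 12 bead arrays, the 12 of the 36 arrays in the series whose titles name liver; the other 24 hold brown fat and inguinal white fat. Of these 12, 6 are titled young (5 months) and 6 old (24 months). At each of 6 harvest times, 0, 4, 8, 12, 16 and 20 h by the sample labels, 1 young and 1 old array was made, and the labels give 3 mice for each array. The mice had aged on chow under a daily light cycle and spent their last 5 days in dim red light with free access to food, so both ages share that housing. The labels do not say whether the RNA of the 3 mice was pooled, which hides any variation from mouse to mouse, and every p-value here measures the spread between arrays. The treatment protocol gives a 3 h interval, whereas the sample labels give 4 h. The label times were used.

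Most of the liver's mass is hepatocytes, which make plasma proteins, store and burn fat, and detoxify drugs and steroids. Many of their detoxifying enzymes differ between males and females under the control of the growth hormone pulse pattern. The sinusoids between them hold Kupffer cells, the resident macrophages, together with lymphocytes and other recruited leukocytes. The 2 compartments are therefore described separately below. In bulk tissue, more cells of a type and more RNA per cell cannot be told apart, nor can fewer cells and less RNA per cell.

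All levels are log2 of the deposited probe intensity plus 16, with intensities below 0 set to 0, so that an intensity of 0 reads 4.00. Levels over 4.63 counted as above background. "Rose" and "fell" mean an adjusted p under 0.05 for old minus young in limma's test with harvest time as a block (Benjamini-Hochberg over all 15813 genes tested). Differences are given as log2 old minus young ± SE, from 6 young and 6 old arrays. Of the 15813 genes, 540 rose, 3.41%, and 96 fell, 0.607%, together 4.02%. Among these, 393 of the rises and 74 of the falls belong to probes with a gene symbol. The median difference of all genes was -0.02. A rise of more than 2-fold was reached by 196 genes and a fall of more than 2-fold by 7.

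The label of the tissue was checked on 3 hepatocyte markers. Mat1a, which makes S-adenosylmethionine in adult liver, lay between 14.50 and 14.88 on the 12 arrays. Ahsg, the plasma protein fetuin-A, lay between 14.68 and 14.92, and Fga, the fibrinogen alpha chain, between 14.60 and 15.15. None of the 3 changed with age (0.06 ± 0.09, 0.02 ± 0.08 and 0.08 ± 0.09).

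Before any result, a pair of arrays needs naming. The array of old liver at 4 h carried transcripts of other tissues. Its mean level over the 5 tested members of a pancreas acinar list was 9.94, against 7.73 to 8.10 on the other 11 arrays, and its Cela2a, a pancreatic elastase, was 11.32 against 5.79 to 7.42. Its level over the 4 tested genes of stratified epithelium was 8.31 against 6.59 to 7.02. Its lymphocyte lists were also the highest of the 12 arrays, with T cell genes at 7.32 where the other 5 old arrays lay between 6.16 and 6.61. On the array of young liver at 8 h the 23 acute phase genes averaged 11.60, against 10.12 to 10.74 elsewhere. Skeletal muscle genes were high on the young arrays of 4, 8 and 12 h and on the old array of 4 h (9.65 to 9.92) and lay between 4.79 and 7.82 on the other 8. Their part in each result was not tested, and counts are given with and without the 4 h pair. Without it, 334 genes rose and 35 fell. Leaving out any 1 harvest time shrinks the calls, to between 260 (without 12 h) and 385 (without 20 h) rises and to between 22 (without 12 h) and 49 (without 0 h) falls.

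**Figure D1:**
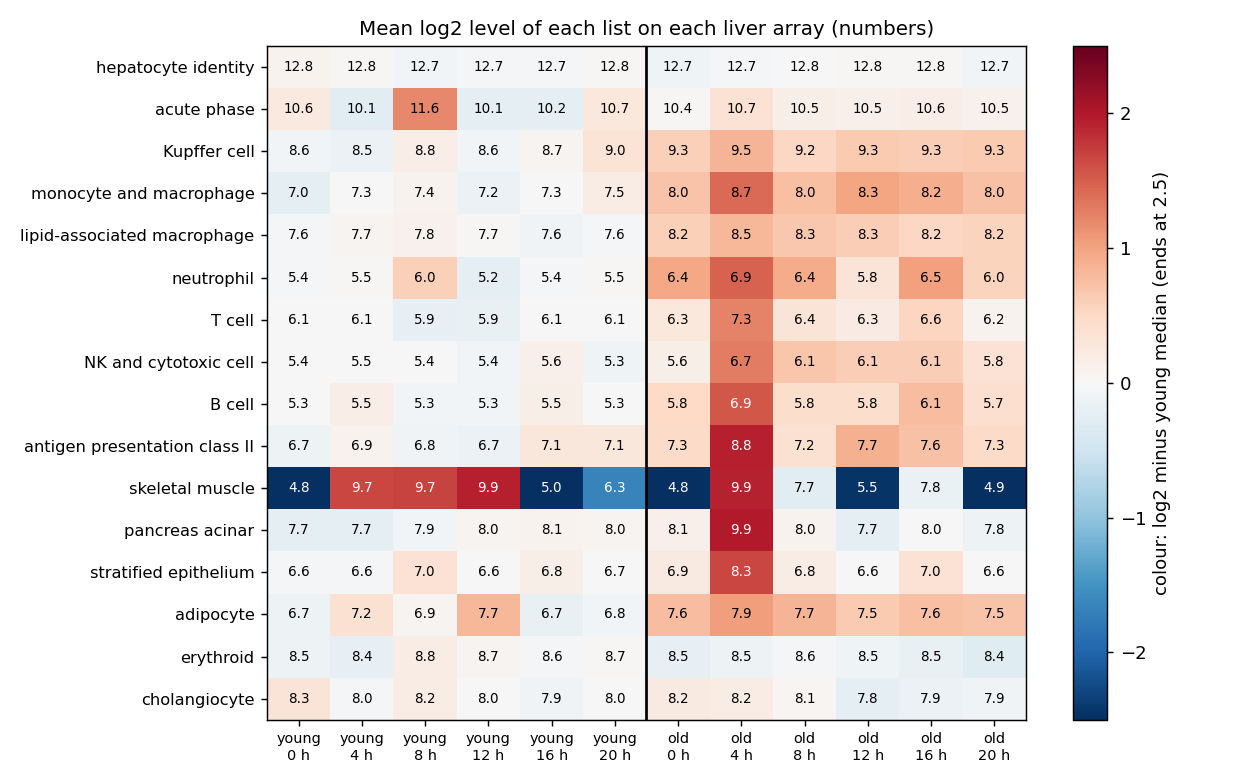
Mean log2 level of the tested members of 16 lists (rows) on each of the 12 liver arrays (columns, young left and old right of the line, by harvest time). Numbers are levels and colours the difference from the median of the 6 young arrays, with the scale ending at 2.5. The old 4 h array stands out for pancreas acinar (9.94) and stratified epithelium (8.31), and the young 8 h array for acute phase (11.60).

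Genes that define hepatocytes gave 1 call. Of 27 tested members of the hepatocyte identity list (plasma proteins, clotting factors and liver transcription factors), 0 rose and 1 fell at a median difference of -0.01, next to 3.41% and 0.607% of all genes. The one that fell was Plg, plasminogen, which lay between 13.37 and 13.66 in young liver and between 13.00 and 13.36 in old liver (fell by 0.36 on the log2 scale, adjusted p = 0.0457 in limma). That call was lost on leaving out any 1 harvest time (adjusted p 0.0805 to 0.151). The mean level of the whole list stayed between 12.67 and 12.85 on the 12 arrays. Alb lay between 10.11 and 11.49 in young and between 10.44 and 11.42 in old liver, so the groups overlapped, and Igf1 differed by -0.00 ± 0.08.

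The largest changes in the hepatocyte programs were those of 2 lipid droplet proteins. Cidea and Cidec belong to the CIDE family, which sits on lipid droplets and promotes their growth by fusion; both are abundant in fat cells and scarce in lean liver. Cidea was 5.14, 5.96, 5.34, 6.02, 5.39 and 5.64 in young liver at 0, 4, 8, 12, 16 and 20 h, and 10.60, 9.98, 9.80, 9.78, 10.20 and 11.08 in old liver. Every old array was above every young one, and the lowest old level exceeded the highest young level by several log2 units. The difference was 4.66 ± 0.23, or 25.3-fold (adjusted p = 0.00011), the largest rise in this liver comparison. Cidec was 6.00, 6.00, 5.30, 7.02, 6.85 and 5.95 in young and 8.31, 8.15, 8.95, 8.91, 9.01 and 8.94 in old liver, again without overlap (2.52 ± 0.22, adjusted p = 0.000952). Both calls were kept on leaving out any 1 harvest time.

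The other 20 tested lipid droplet genes did not pass the threshold, and the median of all 22 was -0.04. That count depended on the settings. The lipid droplet rises numbered 5 with an offset of 64 in place of 16 and 4 with all 36 arrays in 1 fit. They numbered 3 with limma's trend and robust options or with only genes above background on all arrays, and 2 with an offset of 4. Pnpla3, a lipase-like protein of droplets, was higher in old liver at all 6 times but overlapped, with young levels from 5.80 to 8.47 and old levels from 7.49 to 9.17 (1.34 ± 0.37, adjusted p = 0.0981). Plin4, a droplet coat protein, differed by 0.67 ± 0.19 (adjusted p = 0.11). Plin2, the main droplet coat protein of hepatocytes, lay between 10.03 and 10.92 in young and between 10.28 and 11.01 in old liver, a difference of 0.04 ± 0.11. Cidea and Cidec are also the only 2 of 12 tested adipocyte genes that rose, next to 3.41% of all genes. With an offset of 64, and with all 36 arrays in 1 fit, 3 adipocyte genes rose. Adipoq, the fat cell hormone adiponectin, lay between 4.00 and 7.47 in young liver and between 4.24 and 7.33 in old liver (-0.20 ± 0.57). Aoc3, an adipocyte surface enzyme, lay between 4.00 and 6.49 in young liver and between 4.12 and 6.03 in old liver (-0.26 ± 0.37).

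Pathways that make, burn and move lipid had few or no calls. Of 22 tested genes of fatty acid synthesis, 18 of cholesterol synthesis, 23 of bile acid synthesis and transport and 27 targets of PPARA or enzymes of fatty acid oxidation, 0 rose and 0 fell in limma; the medians were 0.02, 0.02, -0.05 and -0.06, and 3, 3, 4 and 2 genes had an unadjusted p under 0.05. With limma's trend and robust options 2 cholesterol genes and 1 bile acid gene rose. Among 14 tested genes of fatty acid uptake 1 fell, next to 0.607% of all genes, namely Angptl4. It is a secreted inhibitor of lipoprotein lipase, and lay between 10.53 and 11.71 in young and between 9.81 and 11.04 in old liver, lower in old at all 6 times though the ranges overlapped (fell by 0.63 on the log2 scale, adjusted p = 0.0251). Leaving out the 4 h pair brought its adjusted p to 0.0656, and 4 other single harvest times (0, 8, 12 and 16 h) also ended the call, with the highest adjusted p 0.0838 without 12 h. Cyp4a14, a fatty acid hydroxylase under PPARA, was 6.67 on the young 8 h array and between 9.92 and 12.04 on the other 11, and did not pass (1.46 ± 0.65, adjusted p = 0.282).

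Genes with a sex-biased level in adult mouse liver moved in both directions. Of 12 tested female-biased genes 2 rose, and of 17 tested male-biased genes 3 fell and 1 rose, next to 3.41% of all genes that rose and 0.607% that fell; the medians were 0.22 and -0.34. The male-biased falls numbered 8 with an offset of 64 in place of 16, 8 (and 0 rises) with limma's trend and robust options, and 6 with no floor (negative intensities kept and 32 added) or with only genes above background on all arrays. Of 23 female-biased genes on the array 11 did not pass the background filter, Cyp2b13 and Cyp3a44 among them. With no filter 2 of 23 female-biased genes rose and 2 of 18 male-biased genes fell, at medians of 0.05 and -0.31. Without the 4 h pair the counts were 2 female-biased rises and 2 male-biased falls, with medians of 0.19 and -0.31. Cyp2b9, a female-predominant cytochrome P450 of steroids and drugs, was 5.93, 4.99, 4.03, 5.66, 5.41 and 5.15 in young and 7.60, 7.21, 6.76, 8.20, 7.91 and 8.60 in old liver. No old array reached down to a young one, and the young 8 h array lay below background (2.52 ± 0.20, adjusted p = 0.000538). Ntrk2, a neurotrophin receptor that is female-biased in mouse liver, was 4.81 to 6.44 in young and 7.32 to 8.22 in old liver, without overlap (2.05 ± 0.18, adjusted p = 0.00102). Over all settings the difference of Cyp2b9 ran from 1.60 to 3.15 and that of Ntrk2 from 1.35 to 2.41. The related Cyp2b10 differed the other way without passing (-0.53 ± 0.24, adjusted p = 0.301).

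Selenbp2, a male-biased selenium-binding protein, was 13.10, 12.30, 12.93, 12.38, 11.75 and 12.31 in young and 11.23, 11.78, 11.32, 11.15, 10.81 and 11.09 in old liver. It was lower in old at every time, and the ranges overlapped only through the young 16 h array (fell by 1.23 on the log2 scale, adjusted p = 0.00687). Cyp4a12b, a male-specific fatty acid hydroxylase, was 12.04, 11.76, 11.81, 11.80, 11.68 and 12.01 in young and 11.25, 11.13, 10.81, 10.90, 10.78 and 11.20 in old liver, without overlap (fell by 0.84, adjusted p = 0.0017). Its close copy Cyp4a12a lay lower in old liver at all 6 times and did not pass (-0.37 ± 0.11, adjusted p = 0.107), and the probes of such copies may not separate them. C6, a terminal complement component, fell by 0.39 (adjusted p = 0.0367), a call that was lost on leaving out any 1 harvest time, with adjusted p from 0.0752 to 0.112. Gstp2, a glutathione transferase, rose by 1.25 ± 0.27 (adjusted p = 0.0414), also lost on leaving out any 1 time (0.0502 to 0.113), while its near-identical neighbour Gstp1 differed by -0.38 ± 0.10 without passing. Cyp2d9, a male-specific steroid hydroxylase, did not overlap between ages, with 14.42 to 14.61 in young and 13.97 to 14.36 in old liver, yet its adjusted p was 0.0643. Over all genes 3.17% were higher in old liver without overlap and 0.632% lower, together 3.81%.

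The zones of the liver lobule were examined through their marker genes. Of 12 tested periportal genes only Cdh1 fell, next to 0.607% of all genes. The list's median was -0.19, with 11 of 12 members below 0, where 46.2% of all genes were above 0. Periportal falls numbered 3, with 1 rise, under an offset of 64 and under limma's trend and robust options. Cdh1, E-cadherin, the adhesion protein of epithelial cells, was 9.30, 8.85, 9.23, 8.69, 8.80 and 9.25 in young and 8.59, 7.85, 7.85, 7.00, 7.24 and 7.81 in old liver. All old arrays were below all young ones (fell by 1.30, adjusted p = 0.00242). Over all settings the difference of Cdh1 ran from -1.41 to -0.79. Of 17 tested pericentral genes only Cyp1a2 fell, a P450 that oxidises caffeine and aromatic amines. It lay between 12.67 and 13.37 in young and 12.26 and 12.70 in old liver (fell by 0.46, adjusted p = 0.0284), and leaving out any 1 harvest time ended that call (0.0541 to 0.0917). Cyp1b1, a P450 of steroids and aromatic hydrocarbons that is scarce in hepatocytes, rose from 4.23 to 4.91 in young to between 5.26 and 6.61 in old liver (1.13 ± 0.16, adjusted p = 0.00941). Among 47 conjugation and antioxidant enzymes, 21 genes of glucose metabolism, 31 of amino acid catabolism and the urea cycle and 52 of oxidative phosphorylation, 0 rose and 0 fell in limma, with medians of 0.07, -0.10, -0.09 and -0.01 and with 14, 0, 5 and 3 genes at an unadjusted p under 0.05. These counts of 0 depended on the settings for 2 of the lists. With an offset of 64, and likewise with limma's trend and robust options, 6 conjugation genes rose and 1 fell, and 4 genes of amino acid catabolism fell.

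Stress and growth programs had 1 call between them. Of 23 genes of endoplasmic reticulum stress, 17 heat shock genes, 23 cell cycle genes and 12 of the growth hormone and IGF axis, 0 rose and 0 fell in limma, with 5, 3, 5 and 3 at an unadjusted p under 0.05. Of 15 tested p53 targets and senescence genes 1 rose, 6.67% next to 3.41% of all genes. This was Cdkn2a, the locus of the cell cycle inhibitors p16 and p19. It was 4.00 to 4.75 in young and 4.32 to 5.37 in old liver, close to the background level of 4.63, higher in old at all 6 times (0.46 ± 0.10, adjusted p = 0.0378). The call was lost on leaving out any 1 harvest time (adjusted p from 0.066 to 0.101).

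The acute phase genes gave 1 call. Of 23 tested, 0 rose and 1 fell, next to 3.41% and 0.607% of all genes, at a median of 0.05, with 3 at an unadjusted p under 0.05. Without the 8 h pair 2 rose at a median of 0.15. The mean level of the list lay between 10.12 and 11.60 in young liver and between 10.42 and 10.74 in old liver. Saa1, a serum amyloid that circulates in inflammation, was 13.46, 10.60, 15.06, 10.68, 11.04 and 13.72 in young liver and 11.81, 12.12, 11.70, 11.75, 11.57 and 11.79 in old liver. The young arrays of 0, 8 and 20 h lay above every old array and those of 4, 12 and 16 h below every one, so no direction was called (-0.64 ± 0.62, adjusted p = 0.641). Saa2, a close copy, ran the same way, from 5.99 to 10.69 in young and 6.81 to 7.24 in old liver. Hp, haptoglobin, differed by 0.01 ± 0.10. Il1r1, the interleukin-1 receptor, fell by 0.51 (adjusted p = 0.0391), a call that was lost on leaving out any 1 time (0.0643 to 0.0979).

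**Figure D2:**
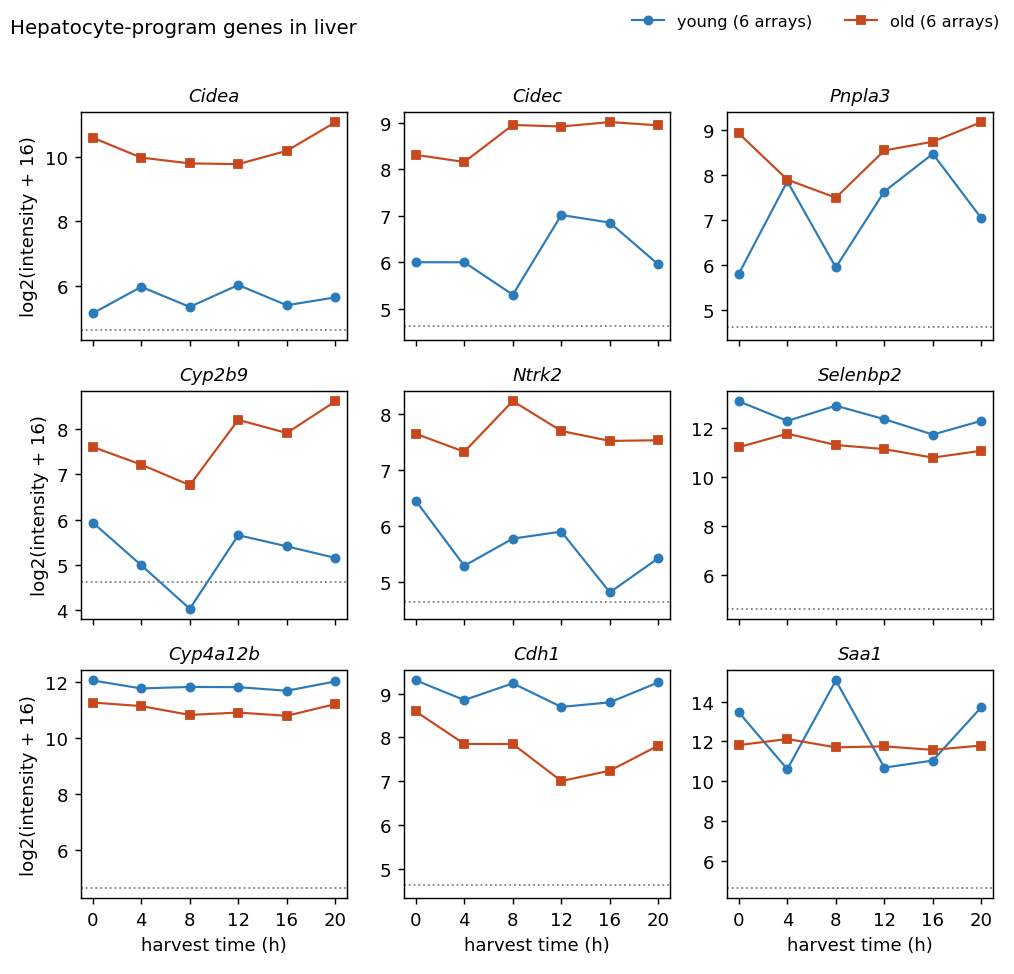
Level of 9 hepatocyte-program genes, log2(intensity + 16), by harvest time in hours, in young (circles) and old (squares) liver, 1 array per point. The dotted line is the background level of 4.63. Cidea, Cidec, Cyp2b9 and Ntrk2 lie higher in old liver at all 6 times, Selenbp2, Cyp4a12b and Cdh1 lower, and the lines of Saa1 cross.

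Several of the largest changes belong to other genes. Serpinb1a, an inhibitor of neutrophil proteases, was 4.69 to 6.54 in young and 6.68 to 8.18 in old liver (1.99 ± 0.11, adjusted p = 0.000136). Tmem45b, a transmembrane protein, was 4.08 to 6.90 in young and 7.09 to 7.78 in old liver (2.40 ± 0.32, adjusted p = 0.00631). Cldn10, a tight junction protein, rose by 2.12 ± 0.19 (adjusted p = 0.00115), and Gprc5b, an orphan receptor, by 1.94 ± 0.20 (adjusted p = 0.00233). For all 4 the groups did not overlap, and each call was kept on leaving out any 1 harvest time. The size of a difference at such low levels depends on the offset added before the log. Over all settings it ran from 1.06 to 3.11 for Cldn10, from 0.97 to 2.79 for Gprc5b, from 1.39 to 3.22 for Tmem45b and from 1.30 to 2.37 for Serpinb1a. Among the falls, Adgrf1, an adhesion receptor, fell by 1.24 (adjusted p = 0.0132, between -1.86 and -0.60 over all settings), and Ces2d-ps, a carboxylesterase pseudogene that may share probe sequence with its family, fell by 1.11 (adjusted p = 0.014). Slc39a4, a zinc importer, lay between 10.21 and 11.07 in young and between 9.39 and 9.79 in old liver (fell by 0.84, adjusted p = 0.0216). Its call was lost without 0, 12 or 16 h, with the highest adjusted p 0.0678 without 12 h.

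Transcripts of immune cells were described next, beginning with macrophages. Of 27 tested monocyte and macrophage genes 19 rose and 0 fell, next to 3.41% of all genes that rose. All 27 differences were above 0, at a median of 0.88, where 46.2% of all genes were above 0. Without the 4 h pair 15 rose at a median of 0.79, and without the 12 h or the 16 h pair 12. With no filter on background, so that 29453 genes were tested, limma called 4 of 34 in this list, 1 of 16 Kupffer cell genes, 0 of 32 chemokines, 0 of 27 T cell genes and 0 of 25 NK and cytotoxic genes. Without both the 4 h and the 8 h pair 10 monocyte and macrophage genes rose. The mean level of the list lay between 7.05 and 7.48 in young liver and between 8.01 and 8.70 in old liver, without overlap. Lyz1 and Lyz2 are close copies whose probes may not separate them.

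Lyz2, lysozyme of macrophages and granulocytes, was 8.47, 8.87, 8.77, 8.47, 8.55 and 9.29 in young and 10.36, 11.55, 9.99, 11.12, 10.22 and 10.31 in old liver. No old array came down to the young range (1.85 ± 0.23, adjusted p = 0.00522 in limma). Its other 2 passing probes differed by 1.12 and 1.54, and were not tested on their own. Ms4a7, a membrane protein of macrophages, was 5.06 to 5.99 in young and 7.17 to 8.19 in old liver (1.94 ± 0.16, adjusted p = 0.000607). Clec4n, the fungal receptor dectin-2, was 6.19 to 6.90 in young and 7.72 to 8.65 in old liver (1.60 ± 0.13, adjusted p = 0.000697). The signalling adaptors Tyrobp and Fcer1g rose by 1.12 ± 0.14 (adjusted p = 0.0052) and 0.96 ± 0.13 (adjusted p = 0.00638). Cx3cr1, the fractalkine receptor of monocytes, rose by 1.13 ± 0.13 (adjusted p = 0.00394).

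Resident Kupffer cells were followed through 15 tested genes, of which 7 rose and 0 fell at a median of 0.66. C1qa, C1qb and C1qc are among the 7 and are also on the complement list. Over all genes 3.41% rose and 0.607% fell. Without the 4 h pair 6 rose at a median of 0.55, without the 12 h or the 16 h pair 3, and without both the 4 h and the 8 h pair 4. Vsig4, a complement receptor that captures bacteria from blood, was 9.73, 9.99, 10.06, 9.48, 9.90 and 10.40 in young and 10.69, 11.27, 10.67, 11.19, 11.08 and 10.95 in old liver, without overlap (1.05 ± 0.16, adjusted p = 0.00996). Marco, a scavenger receptor, was 6.45 to 7.59 in young and 7.74 to 8.47 in old liver (1.02 ± 0.16, adjusted p = 0.0123), and Adgre1, a surface receptor that marks mouse macrophages, 7.77 to 8.33 and 8.80 to 9.52 (1.09 ± 0.13, adjusted p = 0.00394). Not every marker followed. Clec4f, a lectin found on mouse Kupffer cells, lay between 9.36 and 10.13 in young and between 9.95 and 10.54 in old liver and did not pass (0.37 ± 0.15, adjusted p = 0.256). Timd4, a receptor for dying cells on long-lived Kupffer cells, differed by 0.38 ± 0.11 (adjusted p = 0.116), and Cd163, the haemoglobin scavenger receptor, by -0.01 ± 0.10. Whether Clec4f and Vsig4 differ from each other in their age difference was not tested.

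The 3 chains of C1q, which opens the classical complement pathway and comes mainly from macrophages, are encoded by neighbouring genes and were higher on every old than on every young array. C1qa was 8.23 to 8.79 in young and 9.06 to 9.73 in old liver (0.70 ± 0.16, adjusted p = 0.0464), C1qb 9.27 to 9.94 and 10.29 to 11.22 (0.98 ± 0.16, adjusted p = 0.0157), and C1qc 9.21 to 9.61 with an old median of 10.34 and highest of 11.04 (0.95 ± 0.15, adjusted p = 0.0147). The highest old level of each was that of the 4 h array. The C1qa call was lost on leaving out any 1 harvest time (adjusted p from 0.0562 without 4 h to 0.137 without 12 h), that of C1qb without 12 or 16 h (0.0581 and 0.0506) and that of C1qc without 12 or 16 h (0.0523 and 0.0502). Of all 23 tested complement genes 4 rose and 1 fell at a median of 0.01, next to 3.41% and 0.607% of all genes. Without the 12 h pair 0 rose and without the 16 h pair 1. Beside the C1q chains, Cfp, properdin, rose by 0.67 ± 0.12 (adjusted p = 0.0221). The Cfp call was lost without 0 h (adjusted p = 0.0612) and without 12 h (0.0785). Spi1, which encodes the macrophage transcription factor PU.1, rose by 0.58 ± 0.13 (adjusted p = 0.0475) and lost its call on leaving out any 1 time (0.0519 to 0.146).

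Because these neighbouring genes rose in the same comparison, the sequence around the start of C1qb and C1qc is shown, from RefSeq on GRCm38.p6, 250 bases before to 50 after the start, 5′ to 3′ on the gene's own strand. Capitals mark the core GAGGAA of the PU.1 motif, or its reverse complement TTCCTC, searched on both strands. C1qb, at chr4:136886151-136886450 on the minus strand, holds 1 match beginning 30 bases before the start, and C1qc, at chr4:136892865-136893164 on the minus strand, holds 1 beginning 193 bases before it.
C1qb: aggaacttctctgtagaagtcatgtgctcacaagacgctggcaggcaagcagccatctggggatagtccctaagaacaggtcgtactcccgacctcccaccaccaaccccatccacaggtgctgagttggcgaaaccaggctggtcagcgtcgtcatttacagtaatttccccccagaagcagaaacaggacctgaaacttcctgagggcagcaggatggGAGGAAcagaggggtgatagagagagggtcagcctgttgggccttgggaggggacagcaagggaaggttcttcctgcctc
C1qc: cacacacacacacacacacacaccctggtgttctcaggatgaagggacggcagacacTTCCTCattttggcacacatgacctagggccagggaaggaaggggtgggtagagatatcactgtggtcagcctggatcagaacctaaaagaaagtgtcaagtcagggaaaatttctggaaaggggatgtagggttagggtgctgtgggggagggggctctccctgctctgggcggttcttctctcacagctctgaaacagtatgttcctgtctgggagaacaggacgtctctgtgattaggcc
The 6 letters occur in 28.3% of all 32851 promoter windows of this length, so a match is a description of these sequences.

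A macrophage program seen in fat-laden tissue was described through 17 tested lipid-associated genes, of which 7 rose and 0 fell at a median of 0.50. Over all genes 3.41% rose and 0.607% fell. Without the 4 h pair 4 rose at a median of 0.54, and likewise 4 without 8 h or 12 h. Gpnmb, a glycoprotein of lysosome-rich macrophages, was 4.68, 5.06, 4.88, 5.12, 4.69 and 4.26 in young and 7.43, 8.61, 7.35, 7.54, 7.23 and 6.79 in old liver. Young liver was near background throughout, and the groups were far apart (2.71 ± 0.15, adjusted p = 0.000136). Trem2, the lipid-sensing receptor that marks these cells, was 4.48 to 5.71 in young and 6.28 to 6.65 in old liver (1.51 ± 0.13, adjusted p = 0.000815). Lgals3, galectin-3, rose by 1.06 ± 0.15 (adjusted p = 0.00933) and Cd63, a lysosomal tetraspanin, by 0.90 ± 0.15 (adjusted p = 0.0151). Over all settings the difference ran from 1.60 to 3.47 for Gpnmb and from 0.78 to 2.04 for Trem2. These 4 kept their calls on leaving out any 1 harvest time. Cd36, a fatty acid uptake receptor, stayed near background in both groups (0.50 ± 0.16, adjusted p = 0.135).

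Of 9 tested members of the neutrophil list 4 rose, at a median of 0.66, next to 3.41% of all genes. These were S100a8, S100a9, Csf3r and Il1b, while Retnlg, Mmp9, Camp, Ltf and Elane did not pass. Cxcr2, Mmp8, Ngp, Mpo, Chil3, Stfa1 and Stfa2 did not pass the background filter. Which cells carry the rises was not tested. Without the 4 h pair 4 rose too, and with no filter on background 2 of 16 rose at a median of 0.47. S100a8 and S100a9 form calprotectin, the main cytosolic protein of neutrophils. S100a8 was 6.29, 7.03, 7.78, 5.59, 6.01 and 6.19 in young and 8.68, 9.40, 8.84, 7.30, 8.51 and 8.09 in old liver. The young 8 h array, which also had the highest acute phase level, lay above the old 12 h array, so the ranges overlapped, while old was higher at all 6 times (1.99 ± 0.19, adjusted p = 0.00141). S100a9 rose by 1.75 ± 0.19 (adjusted p = 0.00322), and Il1b, interleukin-1 beta, by 1.09 ± 0.15 (adjusted p = 0.00743), the latter without overlap.

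Lymphocyte genes were described by cell type, and the old 4 h array was the highest for most. Of 20 tested T cell genes 3 rose, of 13 NK and cytotoxic genes 4, and of 14 B cell genes 6, with 0 falls in each, next to 3.41% of all genes that rose and 0.607% that fell, and medians of 0.38, 0.53 and 0.85. The background filter can be passed through the old arrays alone. With no filter 0 of 27, 0 of 25 and 1 of 20 rose, at medians of 0.15, 0.31 and 0.57. Without the 4 h pair the rises were 4, 4 and 5 at medians of 0.34, 0.33 and 0.62. Without the 12 h pair 2, 2 and 3 rose, and without the 20 h pair 5 T cell genes. Cd3g, a chain of the T cell receptor complex, was 5.28, 5.91, 4.74, 5.13, 6.27 and 5.38 in young and 6.22, 8.28, 6.66, 6.39, 7.14 and 6.17 in old liver. The old array was higher at each time, and the young 16 h array reached into the old range (1.36 ± 0.22, adjusted p = 0.0131, and 0.019 without 4 h). The other CD3 chains, Cd3d at 1.28 ± 0.33 (adjusted p = 0.0739) and Cd3e at 0.79 ± 0.24 (adjusted p = 0.122), did not pass. For Cd8b1, a chain of CD8, the brightest probe differed by -0.22 ± 0.11 and another passing probe by 1.62, so its direction depends on the probe.

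Trbv13-2, a T cell receptor beta variable segment, was 5.03 to 6.05 in young and 6.57 to 8.79 in old liver, without overlap (1.70 ± 0.24, adjusted p = 0.00849). Klrd1, the CD94 chain of NK receptors, was 4.26 to 4.99 in young and 5.43 to 6.55 in old liver (1.18 ± 0.17, adjusted p = 0.00941). Il2rb and Klrb1c, which also mark NK cells, differed by -0.18 ± 0.18 and -0.10 ± 0.21. Cd79b, a signalling chain of the B cell receptor, was 6.41, 6.77, 6.25, 5.89, 5.59 and 6.23 in young and 7.33, 8.54, 7.37, 7.06, 7.23 and 7.00 in old liver. It did not overlap and kept its call on leaving out any 1 time (1.23 ± 0.14, adjusted p = 0.00402). Fcmr, the IgM receptor of B cells, rose by 1.43 ± 0.19 (adjusted p = 0.00588). Of 8 tested plasma cell genes Mzb1 rose (1.64 ± 0.23, adjusted p = 0.00877) and Fkbp11, a chaperone of the secretory pathway, fell by 0.60 (adjusted p = 0.0187). The Fkbp11 call was lost without 0, 8, 12 or 16 h (highest adjusted p 0.0588).

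Chemokine genes, which guide leukocytes, were tested next. Of 26 tested, 9 rose and 0 fell at a median of 0.55, next to 3.41% and 0.607% of all genes. Without the 4 h pair 5 rose at a median of 0.40, and also 5 without 12, 16 or 20 h. Ccl5, a T cell and NK product that draws further lymphocytes, was 6.50, 6.82, 6.37, 6.65, 6.64 and 6.30 in young and 7.65, 10.52, 8.55, 8.64, 8.70 and 7.60 in old liver. The 4 h array was highest, and all old arrays lay above all young ones (2.06 ± 0.29, adjusted p = 0.00875, and 0.00496 without 4 h). Cxcl13, which guides B cells into follicles, was 5.63, 6.10, 6.30, 6.38, 6.07 and 7.04 in young and 8.88, 9.27, 7.28, 9.60, 8.53 and 8.26 in old liver, without overlap (2.38 ± 0.33, adjusted p = 0.00802). Ccl2, which recruits monocytes, was below background on all 6 young arrays and above it on all 6 old ones, at least 1.12-fold higher (adjusted p = 0.00941 in limma). The filter asks for 6 of the 12 arrays above background, so Ccl2 was tested only through its old arrays. Its young level was 4.46 at 8 h and 4.00, the level of an intensity of 0, at the other times. That floor sets the young spread behind the p-value, and over all settings the difference ran from 0.22 to 1.75. Cxcl16 rose by 0.80 ± 0.12 (adjusted p = 0.0114). Of 8 tested chemokine receptors 2 rose, Cx3cr1 and Ccr6, at a median of 0.55, next to 3.41% of all genes. With no filter on background 1 of 17 rose at a median of 0.12. Ccr6, a receptor of B and T cells, was not above background on any young array and was at least 1.79-fold higher in old liver (adjusted p = 0.0186 in limma). Ccr6 too was tested only through its old arrays. Its call was lost without 16 h (0.0595), and over all settings the difference ran from 0.51 to 2.35.

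Antigen presentation and interferon genes were counted next, and their counts moved with the settings. Of 14 tested class II genes 2 rose, Ctss and Cd86, at a median of 0.87, next to 3.41% of all genes. Without the 4 h pair 1 rose at a median of 0.65, and without any other single time 1 rose too, except 3 without 20 h. The class II count was 9 with an offset of 64, 7 with no floor, 6 with all 36 arrays in 1 fit, 5 with limma's trend and robust options and 1 with an offset of 4. H2-Ab1, H2-Aa and Cd74 did not pass although no old array overlapped a young one. H2-Ab1 lay between 9.61 and 10.40 in young liver (median 10.09) and between 10.42 and 12.38 in old liver (median 10.61) (0.86 ± 0.23, adjusted p = 0.0786), the 4 h array standing above the rest. H2-Aa differed by 0.997 ± 0.23 (adjusted p = 0.0515) and the invariant chain Cd74 by 0.90 ± 0.22 (adjusted p = 0.0621). Of 20 tested class I genes only H2-M2 rose, 5.0% next to 3.41% of all genes. H2-M2 was 4.42 to 5.99 in young and 6.37 to 9.89 in old liver, the top value on the 4 h array (2.15 ± 0.45, adjusted p = 0.0384). Its call held without 4 h (adjusted p = 0.0287) and was lost without any other single time (up to 0.12 without 12 h). Cd86, a costimulator of T cells, rose by 0.70 ± 0.10 (adjusted p = 0.00902), and Ctss, the protease that trims the invariant chain, by 0.83 ± 0.18 (adjusted p = 0.0393). The Ctss call was lost without 0, 4, 8, 12 or 16 h (adjusted p up to 0.114, without 12 h).

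Of 34 tested interferon-induced genes 5 rose and 0 fell at a median of 0.33, against 3.41% of all genes; without the 4 h pair 3 rose at a median of 0.26, and without 12 or 16 h 2, against 7 without 8 h. It was 12 with an offset of 64 and with all 36 arrays in 1 fit, 10 with trend and robust options, 9 with no floor and 3 with an offset of 4. Ifi27l2a was 8.41 to 9.32 in young and 9.48 to 10.26 in old liver (0.96 ± 0.14, adjusted p = 0.0096), and Ifit2, which binds viral RNA, was 5.97 to 6.73 and 6.82 to 7.39 (0.72 ± 0.10, adjusted p = 0.00877). Neither overlapped, and both calls were kept on leaving out any 1 time. Irf7, the regulator of type I interferon, rose by 0.70 ± 0.14 (adjusted p = 0.0312) and lost its call without 0, 4, 12, 16 or 20 h (up to 0.0862).

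**Figure D3:**
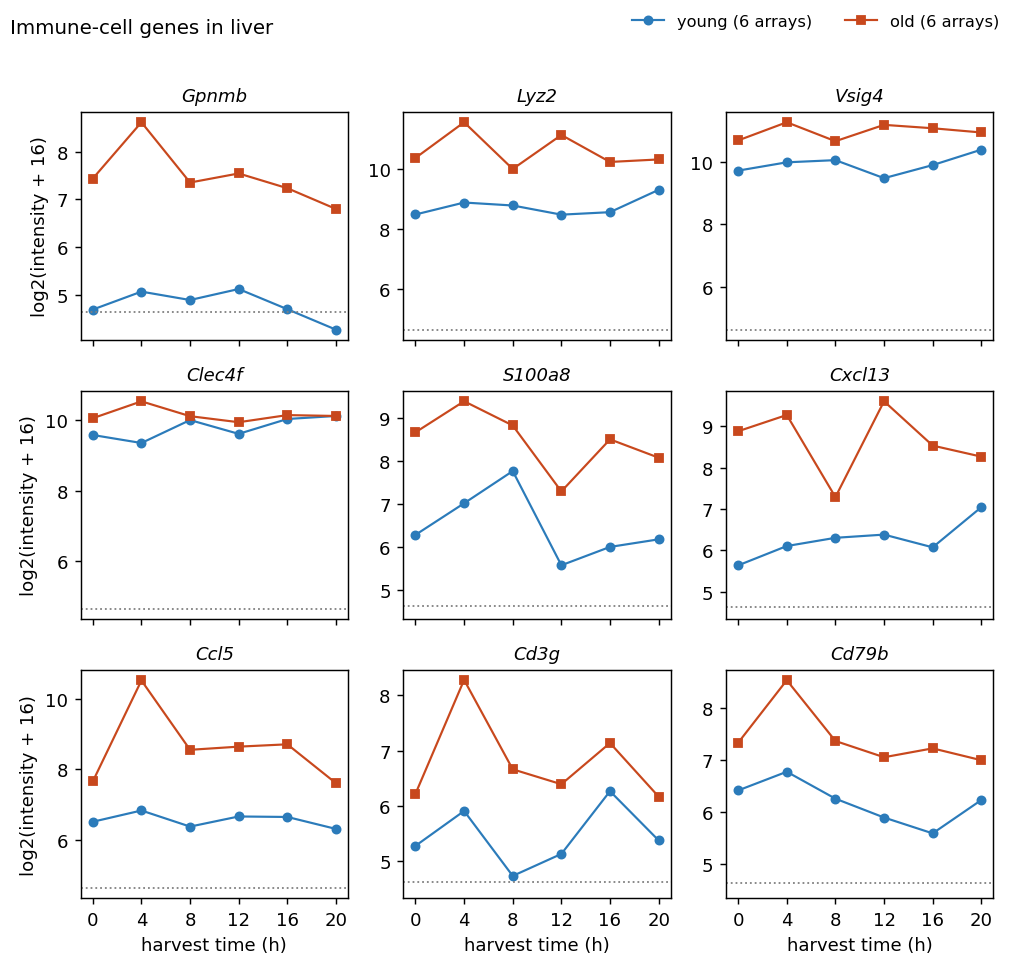
Level of 9 immune-cell genes, log2(intensity + 16), by harvest time in hours, in young (circles) and old (squares) liver, 1 array per point. The dotted line is the background level of 4.63. Old liver is higher at all 6 times for each gene but Clec4f, which is higher at 5, and the old 4 h array is the highest of the 12 for 8 of the 9 genes other than Cxcl13.

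**Figure D4:**
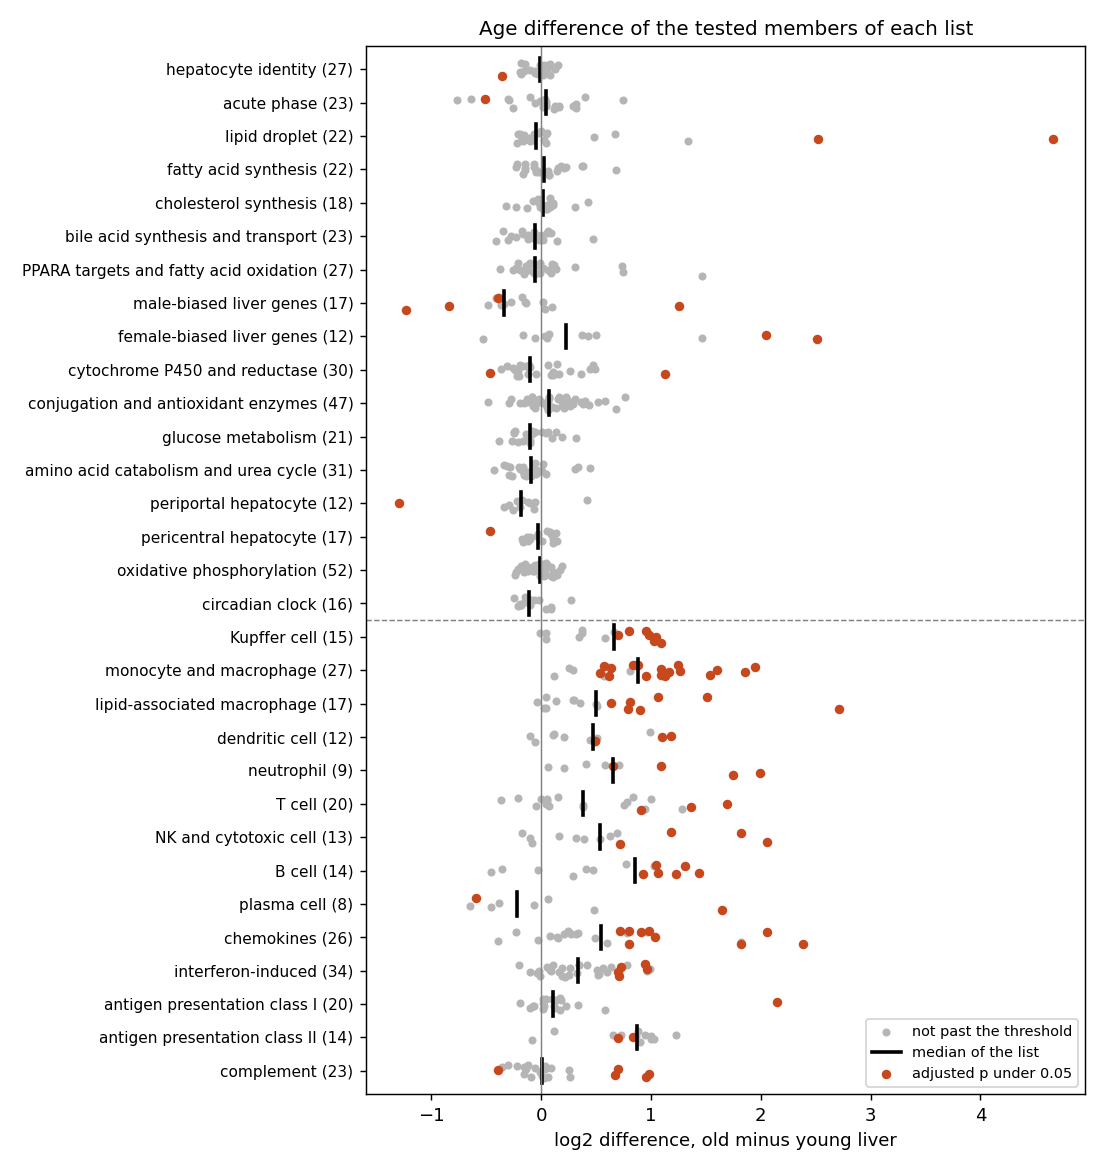
Log2 difference, old minus young liver, of each tested member (points; red, adjusted p under 0.05) of 31 lists, with the number tested in brackets and the median as a black bar. Hepatocyte programs above the dashed line have medians between -0.34 and 0.22, and macrophage lists below it between 0.50 and 0.88.

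Genes of other liver cells were counted in the same way, next to 3.41% of all genes that rose and 0.607% that fell. Of 17 tested genes of sinusoidal endothelium 3 rose at a median of 0.18, and 1 without the 4, 8, 12 or 16 h pair. Fcgr2b, an antibody receptor that clears immune complexes there, rose by 0.62 ± 0.10 (adjusted p = 0.0149 in limma). Of the 3, Fcgr2b and Mrc1 are also on the monocyte and macrophage list, so they are counted in both. Of 12 vascular endothelial genes and 10 cholangiocyte genes 0 rose and 0 fell in limma, with medians of 0.11 and -0.14 and with 2 and 1 at an unadjusted p under 0.05. Of 16 tested stellate cell and fibroblast genes 2 rose at a median of 0.23, and 1 without the 4 h pair or any later one. Pdgfra, a growth factor receptor of fibroblast-type cells, was 7.11 to 7.48 in young and 7.79 to 8.21 in old liver, without overlap (0.70 ± 0.08, adjusted p = 0.00402). Of 25 tested genes of extracellular matrix and its remodelling 4 rose at a median of 0.19, with 11 at an unadjusted p under 0.05; in limma 0 rose without the 4 h or the 12 h pair, 1 without 8 or 16 h and 2 without 20 h. Col1a1 and Col3a1, the fibrillar collagens, differed by 0.08 ± 0.27 and 0.03 ± 0.17. Timp1, a protease inhibitor, rose by 0.88 ± 0.19 (adjusted p = 0.0419) and lost its call without 0, 4, 8, 12 or 16 h (up to 0.131). Of 6 tested platelet genes 2 rose at a median of 0.28, with 4 at an unadjusted p under 0.05. In limma 0 rose without the 4 h pair or any other single one except 8 h. The 2 rises, Pf4 and Ppbp, are also on the chemokine list. Of 12 tested dendritic cell genes 4 rose at a median of 0.47, and 2 without the 4 h pair. Klrd1, among the 4, is also on the NK and cytotoxic list. With no filter on background 0 of 17 dendritic cell genes rose at a median of 0.13. Of 10 tested erythroid genes 1 fell at a median of -0.16, with 3 at an unadjusted p under 0.05; none passed in limma once the 4 h pair was left out.

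The daily clock was compared because each array has its own harvest time. A 24 h rhythm with age in the model was called in 320 of 15813 genes, 2.02%. The test of a different rhythm in old and young liver, the interaction of age with a cosine and a sine term in limma, called 0 of 15813 genes, with 1243 at an unadjusted p under 0.05. Dbp, an output factor of the clock, was 7.93, 11.89, 12.49, 11.92, 10.32 and 8.66 in young and 8.60, 11.73, 12.71, 11.66, 9.65 and 8.18 in old liver. Both ages were highest at 8 h, with fitted amplitudes of 2.31 and 2.38 on the log2 scale (adjusted p of the difference 0.887). Arntl, the core activator BMAL1, ran opposite in phase, with amplitudes of 1.47 in young and 1.86 in old liver (0.732), and Nr1d1, the repressor REV-ERB alpha, had 1.94 and 2.33 (0.705). Of 16 tested clock genes 0 rose and 0 fell with age in limma, at a median of -0.11, with 0 at an unadjusted p under 0.05.

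The series' design text lists liver and fat among the tissues taken from each mouse, although the labels do not tie single arrays to mice. The age difference of liver was set against that of fat by limma on the differences matched by harvest time. The age difference was called unequal between liver and brown fat in 59 of 17270 genes, 0.342%, and between liver and inguinal fat in 1076 of 17542, 6.13%. Leaving out any 1 harvest time brought these counts to between 19 (without 16 h) and 31 (without 20 h), and to between 320 (without 8 h) and 804 (without 20 h). With limma's trend and robust options 0 genes passed against brown fat, with 1623 at an unadjusted p under 0.05, and 388 against inguinal fat. Among the 540 genes that rose in liver, 41 differed from brown fat, all higher in liver, and 364 differed from inguinal fat, 363 of them higher in liver. The median difference of these 540 was 0.83 in liver, 0.12 in brown fat and -0.21 in inguinal fat. Among the 96 that fell, 3 differed from brown fat and 32 from inguinal fat, all lower in liver. These genes were chosen on the same liver arrays that enter the difference, so the shares are no independent support, and all the tissues were scaled to a common distribution.

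Cidea differed by 4.66 in liver, by -0.07 in brown fat and by -0.49 in inguinal fat, a liver excess of 4.73 ± 0.23 (adjusted p = 0.000125) and of 5.15 ± 0.30 (0.000377). Cidec differed by -0.12 in brown fat and 0.13 in inguinal fat, an excess of 2.64 ± 0.24 (0.00464) and 2.39 ± 0.17 (0.000635). Cyp2b9 exceeded brown fat by 2.54 ± 0.23 (0.00464), and Selenbp2 lay below it by -1.19 ± 0.17 (0.0292). Gpnmb differed by 1.17 in brown fat and by 0.44 in inguinal fat, and the liver excess passed in both (1.54 ± 0.21 and 2.27 ± 0.25, adjusted p = 0.0259 and 0.00338). Vsig4 differed by 0.01 in brown fat and by 0.60 in inguinal fat, where the liver excess of 0.45 ± 0.18 did not pass (0.179).

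For 2 lymphocyte genes the differences had opposite signs in liver and inguinal fat. Trbv13-2 differed by 1.70 in liver and by -1.67 in inguinal fat (excess 3.37 ± 0.42, adjusted p = 0.00511), and Fcmr by 1.43 and -1.42 (2.85 ± 0.39, 0.00673). Cxcl13 differed by -0.83 in inguinal fat (excess 3.22 ± 0.39, 0.00511). Cdh1 differed by -1.30 in liver and by 0.997 in inguinal fat (-2.29 ± 0.47, 0.0262), with liver lower at 5 of 6 times. C130026I21Rik was called in the other direction, rising by 1.37 ± 0.26 in liver and differing by 3.29 in inguinal fat (-1.92 ± 0.35, 0.0185); its liver call was lost without 0, 12 or 16 h (up to 0.0828).

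**Figure D5:**
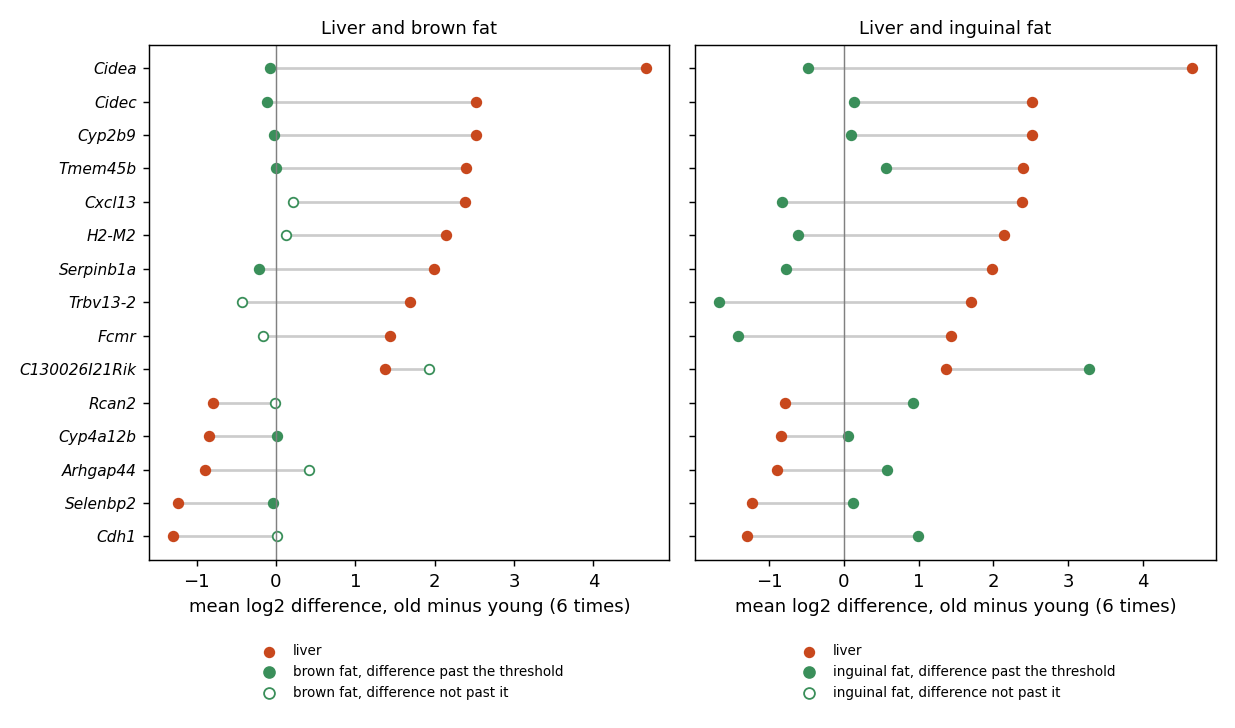
Mean log2 difference, old minus young, over 6 harvest times, in liver (red) and in brown fat (left) or inguinal fat (right). Fat is green, filled where the liver-fat difference passed an adjusted p of 0.05 in limma. The 15 genes have a symbol and were called for age in liver. Among such genes they hold the largest called tissue differences, up to 5 each way for each fat. Cidea is at 4.66 in liver and -0.07 in brown fat, and Trbv13-2 at 1.70 in liver and -1.67 in inguinal fat.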

How the data were processed

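Total RNA of each tissue was labelled and hybridised to Illumina MouseWG-6 v2 bead arrays. BeadStudio, in a version that is not stated, processed the scans per the submitters' processing notes. The deposited intensity values are linear, range from -18.1 to 40120 with 28.7 to 29.1% below 0 on each array, and had been background-subtracted and quantile-normalized over all 36 arrays, as read from the values: sorted columns differ by at most 0.372. The deposited scanner table was not used, since the names of its 144 columns do not settle age and harvest time.

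A level is the log2 of the intensity plus 16, with negative intensities taken as 0. Noise was an SD of 5.35, from values below 0 mirrored at 0, and a probe was above background over an intensity of 8.80, the 95% point. Testing was limited to probes that passed this on 6 or more of the 12 liver arrays (22866 of 45281), each gene by its brightest passing probe; 34885 probes have 1 symbol in the platform annotation, 18 several and 10378 none, and a probe without a symbol was tested unnamed. Genes and list members that do not appear in the counts did not pass this filter or are not on the array. Arrays correlated with each other at 0.970 to 0.981 on average, with 50.8 to 51.0% of probes above background; their number limits the precision (5 residual degrees of freedom). A fold is "at least" where a whole group is below background.

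Age was tested with limma 3.58.1 (lmFit, eBayes, 2-sided) in R 4.3.3, with harvest time as a block of 6 levels, because both ages were harvested at each time, from different mice. Rhythm and tissue differences were tested as given in the text. Only the age fit was checked against known differences on simulated data, whose noise was normal and independent between arrays. The rhythm and tissue tests were not checked against known differences. Members, lists and tests were chosen with earlier results of these data known. Lists share members, so 1 gene can count in several lists, and their counts are not independent. Genes are named by this rule: the 15 largest rises and falls with 1 sign at all 6 times, the top called members of each list, and the defining markers. The 5 largest called tissue differences each way were added, taken only among genes with a symbol that were called for age in liver. Further genes in the text were chosen as examples after their values were seen, as were the promoters shown and their motif, for which other promoters and motifs had been searched first and set aside.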

Additional observations from a re-analysis of the deposited data

Results flagged for a closer look

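Among 314 groups of 6 arrays examined for the genes and lists of the text, 39 held an array whose gap to its nearest neighbour was large against the group's range; chance flags about 1 in 20 such groups. Of the 39, 26 concern the old 4 h array and 9 the young 8 h array. On the old 4 h array the highest level in its group was that of Cela2a (11.32), H2-Ab1 (12.38), H2-M2 (9.89), C1qb (11.22), C1qa (9.73), Clec4f (10.54), Cd63 (9.87), Fcmr (9.12), Cd79b (8.54), C130026I21Rik (7.51), Ifit2 (7.39), Col1a1 (7.03), Ccr6 (6.79), Aoc3 (6.03) and Il2rb (5.83). The same array was highest in the mean level of the lists for complement (11.71), pancreas acinar (9.94), class I (9.65) and class II (8.78) antigen presentation, interferon-induced genes (8.76), stratified epithelium (8.31), extracellular matrix (7.90), dendritic cells (7.55), B cells (6.89) and chemokine receptors (6.43), and lowest for the PPARA list (9.74).

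On the young 8 h array the level stood high for Slc39a4 (11.07), Irf7 (8.37), Cela2a (7.17), Ccl2 (4.46), the acute phase list (11.60) and the neutrophil list (6.02), and low for Cyp4a14 (6.67), the oxidative phosphorylation list (11.51) and the sinusoidal endothelium list (8.27). Single arrays stood apart for Adgre1 (8.33, young 20 h), Igf1 (12.64, young 4 h), Ms4a7 (5.06, young 0 h) and the periportal list (11.45, old 12 h).

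Some age differences were unequal between liver and fat by limma's test of the difference. Listed here are the largest, up to 5 each way, among genes with a symbol that were called for age in liver. For brown fat these were Cidea at 4.73, Cidec 2.64, Cyp2b9 2.54, Tmem45b 2.40, Serpinb1a 2.20, Cyp4a12b -0.85 and Selenbp2 -1.19 on the log2 scale. For inguinal fat the listed differences were Cidea at 5.15, Trbv13-2 3.37, Cxcl13 3.22, Fcmr 2.85, H2-M2 2.77, Cdh1 -2.29, C130026I21Rik -1.92, Rcan2 -1.71, Arhgap44 -1.47 and Selenbp2 -1.35. Further genes passed in both comparisons. A negative value means that old minus young was lower in liver than in fat.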

How the results depend on the processing

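The count of 96 falls became 51 with an offset of 4, 175 with 64, 37 with no filter, 195 with limma's trend and robust options and 178 with all 36 arrays in 1 fit. The 540 rises became 130 with no filter, 371 with an offset of 4, 725 with 64, 650 with no floor and 773 with trend and robust options. Without the 4 h and 8 h pairs together, a choice made after seeing the data, 194 rose and 14 fell. The 59 genes that differed between liver and brown fat became 18 with an offset of 4, 140 with 64, 98 with no floor, 1 with no filter, 0 with trend and robust options (1623 at an unadjusted p under 0.05 in limma) and 1 without the 4 h and 8 h pairs. The 1076 that differed from inguinal fat became 670 with an offset of 4, 205 with no filter, 388 with trend and robust options and 238 without those pairs. Leaving out 1 harvest time gave 260 to 385 rises, 22 to 49 falls, 19 to 31 differences from brown fat and 320 to 804 from inguinal fat. The interaction of age with harvest time called 0 genes under every setting in which it was run. Without the paired block of harvest time, 549 genes rose and 85 fell. Of 71 genes in the text past the threshold, 66 kept their call without the block, 60 with an offset of 4, 26 with no filter, and 50 to 59 on leaving out 1 harvest time; none changed sign. In 30 of the 71 the size of the difference moved by more than 1.5 times with an offset of 4 or 64. Cd8b1, not called in the report at -0.22, was 0.70 and past the threshold with the mean of its passing probes. The cause of these shifts was not tested, except that no filter tests more genes. The number of arrays and, near 4.63, the background limit what can be called.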

Other observations

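The probes of 3 neighbouring olfactory receptor genes, Olfr1028, Olfr1029 and Olfr1030, on chromosome 2, were singled out after their values were seen. All 3 were below background on all 6 young liver arrays, and all 3 were above it on all 6 old ones. The filter asks for 6 of the 12 arrays, so they were tested only through their old arrays. Their p-values are therefore no independent support. Of the 393 rises with a gene symbol, 13 had no young array above background. Olfr1030 was 4.17, 4.21, 4.60, 4.57, 4.51 and 4.22 in young and 6.36, 6.12, 5.90, 6.18, 6.61 and 6.12 in old liver, at least 2.99-fold higher (adjusted p = 0.000321 in limma). Olfr1028 was at least 1.77-fold higher (0.00109) and Olfr1029 at least 1.52-fold higher (0.0029). The 3 calls were kept on leaving out any 1 harvest time. Over all settings the difference ran from 0.51 to 2.78 for Olfr1028, from 0.43 to 2.65 for Olfr1029 and from 0.83 to 2.85 for Olfr1030. Close copies may share probe sequence, so these 3 rises may not be separate.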
